A study of Mus musculus with 30 samples.

Results

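The 8 genes described here are Desert hedgehog (Dhh), its receptor Ptch1, the signal transducer Smo, the transcription factors Gli1, Gli2 and Gli3, and the pathway's responsive genes Hhip and Foxf1. They were taken by mouse symbol from the Ensembl identifiers of the count files, as 8 of 49315 genes, and all 8 passed the low-count filter. A further 54 genes of Hedgehog release, reception, relay and response were listed beside them. RNA was sequenced from 30 cultures of testes that C57BL/6 fetuses supplied on gestational day 14, freed of the mesonephros and kept on inserts for 24 h. All cultures, the controls included, contained the solvent DMSO. There were 15 vehicle libraries with DMSO alone, 6 with 100 µM mono-(2-ethylhexyl) phthalate (MEHP, the active metabolite of the plasticiser DEHP), 5 with 1 µM all-trans retinoic acid (ATRA) and 4 with both compounds at these doses (MEHP + ATRA).

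Each sample title carries 2 numbers, and what they stand for is not given. The second number lay between 416 and 465 (the lower range) or between 525 and 599 (the upper range). All 6 MEHP libraries fell in the upper range and all ATRA and MEHP + ATRA libraries in the lower range, while vehicle libraries fell in both, 9 lower and 6 upper. Every treatment was therefore compared with vehicle libraries of the same range. Libraries held 17551454 to 29306917 counted reads. Separate animals or litters are not named in the labels, and the p-values then cover only how far these libraries vary, which may be technical. Replicates are numbered in deposit order within a group. Marker genes of Sertoli, fetal Leydig, interstitial, peritubular, endothelial, Schwann and germ cells were detected under the testis label, and no marker was at 0 in all libraries of any group.

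In the fetal testis, Sertoli cells inside the cords secrete DHH, which acts on the interstitial and peritubular cells around them. DHH binds PTCH1, which otherwise holds SMO inactive. Freed SMO lets the GLI factors switch on target genes, among them Gli1, Ptch1 and the decoy receptor Hhip, and the pathway is needed for fetal Leydig cells to form.

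Promoter sequence is shown for the ligand and the genes encoding its receptor and decoy receptor, because their calls with MEHP + ATRA differed: Dhh was higher, Hhip was lower and Ptch1 did not pass. Each line gives the 250 bases upstream of the RefSeq start site, 5′ to 3′ on the strand of the gene, from RefSeq on GRCm38.p6. Capitals mark the GC box (GGGCGG, or CCGCCC where it lies on the other strand). Dhh is shown for chr15:98898541-98898790, Ptch1 for chr13:63565736-63565985 and Hhip for chr8:80058009-80058258, all on the minus strand. The Ptch1 window lies inside the gene span of the files, because the RefSeq start used is downstream of the 5′ end of that span.
Dhh: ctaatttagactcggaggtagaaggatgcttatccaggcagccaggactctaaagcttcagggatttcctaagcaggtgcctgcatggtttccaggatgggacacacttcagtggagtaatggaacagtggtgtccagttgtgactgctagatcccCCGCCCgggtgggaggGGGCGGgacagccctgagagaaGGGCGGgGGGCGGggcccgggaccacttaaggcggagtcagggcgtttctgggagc
Ptch1: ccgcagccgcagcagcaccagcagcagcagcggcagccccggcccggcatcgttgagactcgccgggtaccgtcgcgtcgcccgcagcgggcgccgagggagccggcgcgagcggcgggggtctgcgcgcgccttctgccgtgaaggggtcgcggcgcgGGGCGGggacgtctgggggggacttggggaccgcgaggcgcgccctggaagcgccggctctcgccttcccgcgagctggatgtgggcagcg
Hhip: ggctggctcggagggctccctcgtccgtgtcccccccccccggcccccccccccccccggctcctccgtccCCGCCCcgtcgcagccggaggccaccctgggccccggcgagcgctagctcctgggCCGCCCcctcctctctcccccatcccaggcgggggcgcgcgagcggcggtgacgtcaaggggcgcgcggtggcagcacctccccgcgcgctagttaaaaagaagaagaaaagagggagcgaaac

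A RefSeq promoter was matched for 6 of the 8 genes, all but Gli1 and Foxf1. In Dhh the 4 GC boxes lay between 94 and 44 bases upstream of the start, Ptch1 held 1 and Hhip held 2. A GC box occurred in 32.7% of the 32851 promoter windows of the same length. The bases G and C made up 59.6% of the Dhh window, 78.4% of the Ptch1 window and 76.0% of the Hhip window, against a mean of 53.2% over all promoters. The GLI sequence GACCACCCA, searched on both strands, was in 0.225% of all windows and in none of the 6. The same held for GACCNCCCA (0.868% of windows), which overlaps it. The retinoic acid receptor half-site AGGTCA, found in 14% of windows, was likewise in none of the 6, and so were its direct repeats with 5 or with 2 bases between the half-sites (0.00913% of windows each). These counts concern the letters of these windows only.

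With ATRA, alone or together with MEHP, Dhh RNA was higher while 2 of the genes that respond to it, Gli1 and Foxf1, were lower. Ptch1, which also responds, passed with neither, and Hhip passed only with MEHP + ATRA. With ATRA alone, the call of Dhh depended on the range term and that of Gli1 on the filter and on single libraries. Of the 8 genes, 3 passed the test with ATRA (1 higher, 2 lower) and 5 passed with MEHP + ATRA (2 higher, 3 lower), at an adjusted p under 0.05 from edgeR's quasi-likelihood test over 19323 genes. Among all genes tested, 18.1% passed with ATRA (9.06% higher, 9.03% lower) and 29% with MEHP + ATRA (14.3% higher, 14.7% lower). With MEHP alone none of the 8 passed, against 4.72% of all genes (2.88% higher, 1.84% lower). At an unadjusted p under 0.05 there were 2, Dhh and Ptch1, beside 2865 of the 19323 genes, and DESeq2 called 0. With MEHP the median log2 fold change of the 8 genes was 0.11, beside -0.01 for all genes. For ATRA the 2 medians were -0.05 and -0.00018, and for MEHP + ATRA they were -0.06 and -0.01. In RNA of whole testes, fewer cells of a type and less RNA per cell cannot be told apart.

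**Figure D1:**
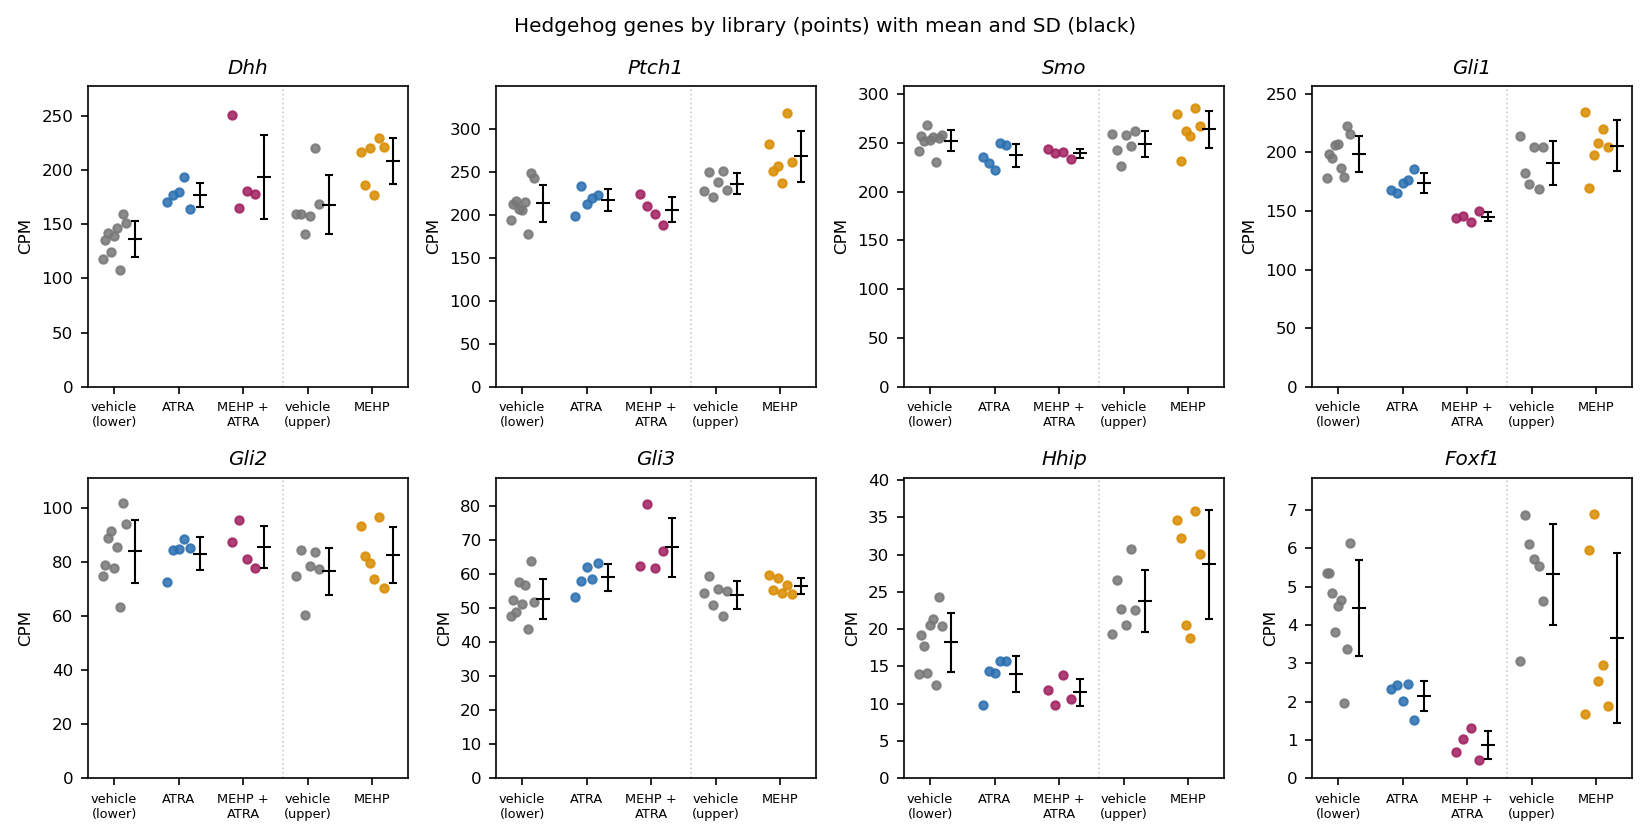
Level of each gene in each library in CPM, its read count scaled to a common library size, with the group mean and SD in black. The dotted line separates the groups of the lower range (vehicle, ATRA, MEHP + ATRA) from those of the upper range (vehicle, MEHP). The 4 MEHP + ATRA libraries lie below every vehicle library for Gli1 and Foxf1, and above every lower-range vehicle library for Dhh.

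Per length of transcript (RPKM, the CPM divided by the gene's exonic length in kilobases), Dhh and Gli1 were the most abundant of the 8 in lower-range vehicle cultures. Their levels were 57.6 ± 7.02 and 54.2 ± 4.25 RPKM (SD, n = 9). Smo followed at 44.9 ± 1.92 and Ptch1 at 24.4 ± 2.499 RPKM. Gli2 stood at 12.3 ± 1.70, Gli3 at 5.49 ± 0.619, Hhip at 2.01 ± 0.437 and Foxf1 at 1.84 ± 0.517 RPKM. Dhh and Gli1 did not differ beyond their spread, nor did Hhip and Foxf1.

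Dhh, the ligand (ENSMUSG00000023000, chr15:98893031-98898540, minus strand), was measured at 107.4 to 159.5 CPM in the 9 lower-range vehicle libraries, with a median of 139.2. The 5 ATRA libraries gave 170.8, 176.7, 179.6, 193.3 and 163.7 CPM. The 4 MEHP + ATRA libraries gave 250.5, 165.2, 180.6 and 178.3 CPM. All 9 of these treated libraries lay above all 9 vehicle libraries of their range. Among all genes, groups did not overlap for 9.49% with ATRA and 17.6% with MEHP + ATRA. Dhh rose by 29.99% with ATRA, a log2 fold change of 0.38 ± 0.10 (SE, edgeR adjusted p = 0.00496). With MEHP + ATRA it rose by 42.3%, a log2 fold change of 0.51 ± 0.10 (edgeR adjusted p = 0.000265). Both comparisons use the same 9 vehicle libraries. Without the range term, which sets ATRA against all 15 vehicle libraries, the log2 fold change with ATRA was 0.25 and its adjusted p was 0.0902. The gene model in the files stops short of the GENCODE M21 model at the 3′ end (chr15:98891152-98898540), so reads in that stretch were not counted for Dhh.

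With MEHP, Dhh stood at 176.8 to 229.7 CPM, median 218.6 (n = 6), against 141.0 to 220.2, median 159.5, in the 6 upper-range vehicle libraries. Of the MEHP libraries, 3 lay above every upper-range vehicle library and all 6 above the vehicle median. The log2 fold change was 0.31 with a 95% interval from 0.11 to 0.52, and it did not pass (edgeR adjusted p = 0.0767). This result changed with single libraries and with the model. Without the range term, against all 15 vehicle libraries, the log2 fold change was 0.49 and the adjusted p 0.000613. The adjusted p was 0.00689 without vehicle replicate 11, the highest vehicle library, 0.0409 without MEHP replicate 4 and 0.0364 without MEHP + ATRA replicate 1. Vehicle cultures themselves differed by range, at 136.0 ± 16.6 CPM (SD, n = 9) in the lower and 167.9 ± 27.2 CPM (SD, n = 6) in the upper. That difference, a log2 value of 0.30 ± 0.09, did not pass (edgeR adjusted p = 0.120), and 0.373% of all genes did. Of the 8 genes 0 passed between the ranges, 3 had an unadjusted p under 0.05 (Dhh, Hhip and Ptch1), and DESeq2 called 0. Among all 19323 genes, 2607 had an unadjusted p under 0.05 there.

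Markers of Sertoli cells, the source of Dhh, moved with these groups. Of the 12 listed, 8 were called higher and 1 lower with ATRA, and 9 higher and 1 lower with MEHP + ATRA. With MEHP 5 were called higher and 1 lower. The shares called were 75% with ATRA, 83.3% with MEHP + ATRA and 50% with MEHP. Among all genes they were 18.1%, 29% and 4.72%. Nr0b1, a nuclear receptor gene of Sertoli cells, rose by 2.23 and 2.55 on the log2 scale. Sox9, which drives Sertoli differentiation, rose by a log2 fold change of 0.81 ± 0.14 (SE) with ATRA and 1.28 ± 0.14 with MEHP + ATRA. Amh, the Sertoli hormone that removes the Müllerian duct, fell by 0.61 and 1.11 on the log2 scale. The summed level of the 12 ran from 1448 to 2218 CPM in lower-range vehicle, from 1873 to 2281 with ATRA and from 1791 to 2372 with MEHP + ATRA. In the upper range it ran from 1801 to 2794 CPM in vehicle and from 1589 to 2300 with MEHP. Amh was the largest part of these sums, with means of 1024 CPM in lower-range vehicle, 670.8 with ATRA and 473.3 with MEHP + ATRA. Its means were 1188 CPM in upper-range vehicle and 767.5 with MEHP. Aard (196.3, 444.9 and 421.6 CPM in the lower-range groups) and Cst9 (87.74, 199.1 and 212.0) rose, so the sums hold opposite changes. The part of these markers in the Dhh values was not tested.

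Ptch1 (ENSMUSG00000021466, chr13:63508328-63573598, minus strand) encodes the receptor and is itself induced by the pathway. Its levels in lower-range vehicle ran from 178.1 to 248.4 CPM, median 212.8. The ATRA libraries gave 199.2, 233.1, 213.0, 219.4 and 222.6 CPM and the MEHP + ATRA libraries 223.9, 210.7, 201.2 and 188.5 CPM. Both treated groups lay inside the vehicle range. The log2 fold change was 0.03 with ATRA (95% interval -0.11 to 0.16) and -0.05 with MEHP + ATRA (95% interval -0.20 to 0.10). With MEHP alone the 6 libraries ran from 236.8 to 318.8 CPM, median 259.2, and the 6 upper-range vehicle libraries from 220.5 to 251.0, median 234.0. There 4 of the 6 MEHP libraries exceeded every upper-range vehicle library, and the log2 fold change of 0.18 ± 0.07 did not pass (edgeR adjusted p = 0.159).

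Smo (ENSMUSG00000001761, chr6:29735503-29761365, plus strand) encodes the membrane protein that PTCH1 restrains. Its lower-range vehicle levels were 230.4 to 268.5 CPM with a median of 254.9. The ATRA libraries gave 235.4, 229.6, 222.5, 249.9 and 247.4 CPM, and the MEHP + ATRA libraries 243.2, 239.1, 240.9 and 233.1 CPM. All 9 fell below the vehicle median. The log2 fold changes were -0.09 with ATRA, -0.08 with MEHP + ATRA and 0.08 with MEHP, and none passed (edgeR adjusted p = 0.190, 0.258 and 0.427). In MEHP cultures it ran from 231.6 to 285.6 CPM, against 226.1 to 261.5 CPM in upper-range vehicle.

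**Figure D2:**
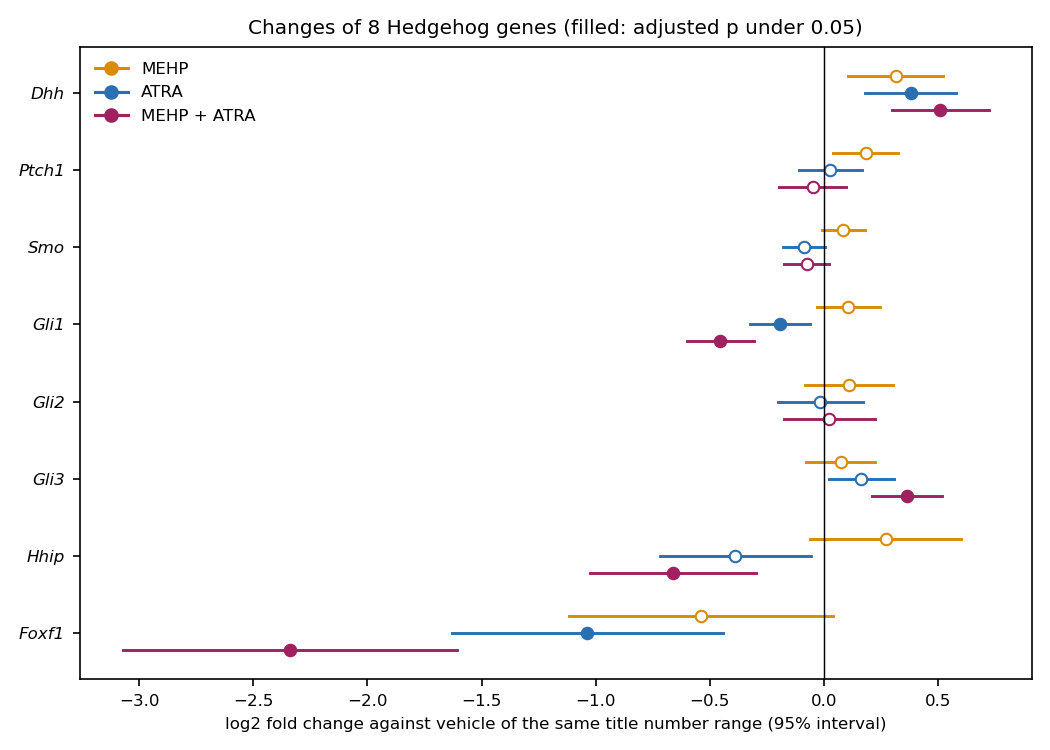
Log2 fold change of each gene against vehicle of the same title-number range, with its 95% interval, for MEHP, ATRA and MEHP + ATRA. Filled points have an edgeR adjusted p under 0.05. Dhh lies to the right of 0 with all 3 treatments, and Gli1, Hhip and Foxf1 lie furthest left with MEHP + ATRA.

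Gli1 (ENSMUSG00000025407, chr10:127329889-127341589, minus strand) is both an activator of the pathway and its most used read-out. Lower-range vehicle libraries gave 177.8 to 222.1 CPM with a median of 198.8. The 5 ATRA libraries stood at 167.5, 164.9, 174.2, 176.6 and 186.1 CPM, 4 of them below every vehicle library of the range. The 4 MEHP + ATRA libraries stood at 144.0, 145.4, 140.8 and 149.7 CPM, below every lower-range vehicle and every ATRA library. Among all genes, groups did not overlap for 17.6% against lower-range vehicle and for 7.15% against ATRA. Gli1 fell by 12.5% with ATRA (log2 fold change -0.19 ± 0.06, edgeR adjusted p = 0.0355) and by 27.0% with MEHP + ATRA (-0.45 ± 0.07, adjusted p = 7.36e-06).

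The change of Gli1 with ATRA was close to the threshold. Leaving out ATRA replicate 1, 2, 3 or 4 or vehicle replicate 13 or 15 gave adjusted p-values of 0.0741, 0.0916, 0.0578, 0.0564, 0.0655 and 0.0643 in that order. With no low-count filter it was 0.0594. With MEHP alone Gli1 stood at 169.5 to 234.5 CPM (median 206.2) against 169.1 to 213.7 CPM (median 193.1) in upper-range vehicle, a log2 fold change of 0.11 with an interval from -0.03 to 0.24. Gli1 overlaps Arhgap9 on the opposite strand, which had 25 to 121 reads per library, and without a stated strand setting their reads cannot be told apart.

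Gli2 (ENSMUSG00000048402, chr1:118834132-119053619, minus strand), the main activator that the pathway acts on, showed no change that passed. Its lower-range vehicle levels ran from 63.3 to 101.8 CPM, median 85.8. The ATRA libraries gave 72.8, 84.4, 85.03, 88.6 and 85.3 CPM and the MEHP + ATRA libraries 87.3, 95.8, 81.3 and 77.9 CPM. All of these lay inside the vehicle range. The 95% interval of the log2 fold change was -0.20 to 0.17 with ATRA, -0.18 to 0.22 with MEHP + ATRA and -0.08 to 0.30 with MEHP.

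Gli3 (ENSMUSG00000021318, chr13:15463235-15730026, plus strand) is processed to a repressor of the same targets when the ligand is absent. It ran from 43.9 to 63.7 CPM in lower-range vehicle, median 51.8. The ATRA libraries gave 53.2, 57.9, 62.0, 58.6 and 63.0 CPM, all above the vehicle median and within the vehicle range. The MEHP + ATRA libraries gave 62.2, 80.4, 61.7 and 66.8 CPM, 2 of them above every vehicle library of the range. Gli3 rose by 28.7% with MEHP + ATRA (log2 fold change 0.36 ± 0.07, edgeR adjusted p = 0.000305). With ATRA the log2 fold change was 0.16 ± 0.07 and did not pass (adjusted p = 0.117), though it did without vehicle replicate 13 (0.0283). With MEHP alone it was 0.07 ± 0.07 (adjusted p = 0.745). Gli3 overlaps the noncoding Gm6556 on the opposite strand, with 28 to 91 reads per library.

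Hhip (ENSMUSG00000064325, chr8:79965851-80058006, minus strand) encodes a membrane decoy that binds the ligand, and it is induced by the pathway. Lower-range vehicle libraries gave 12.5 to 24.4 CPM, median 19.2. The ATRA libraries stood at 9.80, 14.4, 14.2, 15.8 and 15.8 CPM and the MEHP + ATRA libraries at 11.9, 9.82, 13.9 and 10.6 CPM. Of the latter, 3 of 4 lay below every vehicle library of the range. Hhip fell by 36.8% with MEHP + ATRA (log2 fold change -0.66 ± 0.18, edgeR adjusted p = 0.00486). With ATRA the log2 fold change was -0.39 ± 0.16 and did not pass (adjusted p = 0.102), though it did without vehicle replicate 12 (0.0489) and without the range term (0.0150).

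In the upper range Hhip ran the other way without passing. The 6 MEHP libraries stood at 18.8 to 35.9 CPM, median 31.1, and the 6 vehicle libraries at 19.3 to 30.7, median 22.7. Of the MEHP libraries 3 lay above and 1 below every upper-range vehicle library. The log2 fold change was 0.27 with an interval from -0.06 to 0.60. Vehicle libraries of the upper range also had more Hhip than those of the lower range, 23.8 ± 4.20 against 18.3 ± 3.97 CPM (SD, n = 6 and 9), a difference that did not pass (edgeR adjusted p = 0.239).

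Foxf1 (ENSMUSG00000042812, chr8:121084386-121088144, plus strand), a forkhead factor gene of Hedgehog-receiving mesenchyme, had the largest fold changes of the 8. It ran from 1.95 to 6.14 CPM in lower-range vehicle, median 4.66, which is 37 to 118 reads. The ATRA libraries gave 2.34, 2.44, 2.00, 2.46 and 1.53 CPM, all below the vehicle median. The MEHP + ATRA libraries gave 0.690, 1.02, 1.31 and 0.489 CPM, from 12 to 29 reads, below every lower-range vehicle and every ATRA library. A lack of overlap held for 17.6% of all genes against lower-range vehicle and for 7.15% against ATRA. Foxf1 fell by 51.3% with ATRA (log2 fold change -1.04 ± 0.29, edgeR adjusted p = 0.0102) and by 80.2% with MEHP + ATRA (-2.34 ± 0.36, adjusted p = 5.27e-06).

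The 6 MEHP libraries were the most spread for Foxf1, from 1.68 to 6.89 CPM with a median of 2.74. Of these, 4 lay below every upper-range vehicle library and 1 above them all (vehicle 3.06 to 6.87 CPM, median 5.63). The log2 fold change was -0.54 ± 0.28 and did not pass (edgeR adjusted p = 0.390). Its neighbours were looked at after the values of Foxf1 had been seen, and those named were chosen after their own values were seen. Fendrr, a long noncoding RNA gene beside Foxf1, fell with MEHP + ATRA (log2 fold change -1.64 ± 0.44, edgeR adjusted p = 0.00409), from 9 to 17 reads per lower-range vehicle library to 1 to 7. Foxc2, a forkhead gene of the same cluster, gave a log2 fold change of 0.11 there (adjusted p = 0.669). Foxl1, another forkhead gene of that cluster, had medians of 0.590 CPM in lower-range vehicle and 0.749 CPM with MEHP + ATRA. These are 4 to 24 and 13 to 24 reads per library. Gm20388 overlaps Foxf1 on the same strand and had 0 reads in every library, and how the counting handled reads of both models is not given in the sources used here.

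Adding MEHP to ATRA was tested within the lower range, as the 4 MEHP + ATRA against the 5 ATRA libraries. None of the 8 genes passed, against 3% of all genes tested. At an unadjusted p under 0.05 there were 3 (Foxf1, Gli1 and Gli3), beside 2576 of the 19323 genes. DESeq2 called 2, Gli1 (adjusted p = 0.0298) and Foxf1 (adjusted p = 0.0138). For these 2 genes all 4 MEHP + ATRA libraries lay below all 5 ATRA libraries, a separation seen in 7.15% of all genes. In edgeR the log2 difference was -0.26 ± 0.08 for Gli1 (adjusted p = 0.0640) and -1.30 ± 0.39 for Foxf1 (adjusted p = 0.0636). Gli1 passed without MEHP replicate 1 (0.0499) or 2 (0.0338), and Foxf1 without MEHP replicate 1 (0.0456), MEHP replicate 3 (0.0363) or vehicle replicate 12 (0.0451), libraries that are in neither group and enter only through the shared model.

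Whether the effect of MEHP differed with ATRA present was tested as an interaction over all 4 groups. None of the 8 genes passed, against 0.0311% of all genes. At an unadjusted p under 0.05 there were 3 (Gli1, Hhip and Ptch1), beside 827 of the 19323 genes, and DESeq2 called 0. The interaction was largest in relation to its error for Gli1, at -0.37 ± 0.10 on the log2 scale (edgeR adjusted p = 0.401). In this comparison MEHP alone is measured in the upper range and MEHP + ATRA in the lower.

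The 54 other Hedgehog genes gave the surroundings of these 8. Foxf2, at 1 to 14 reads per library, was too low to test. Of the 53 tested, 2 passed with MEHP (1 higher, 1 lower), 10 with ATRA (6 higher, 4 lower) and 16 with MEHP + ATRA (6 higher, 10 lower). These are 3.77%, 18.9% and 30.2%, beside 4.72%, 18.1% and 29% of all genes, so the shares were near the background. Without ATRA replicate 3 or ATRA replicate 4 the ATRA count was 5 or 6. Between MEHP + ATRA and ATRA 1 of the 53 passed (Bmp4), against 3% of all genes. No interaction passed (0 at an unadjusted p under 0.05 in edgeR, 0 by DESeq2).

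**Figure D3:**
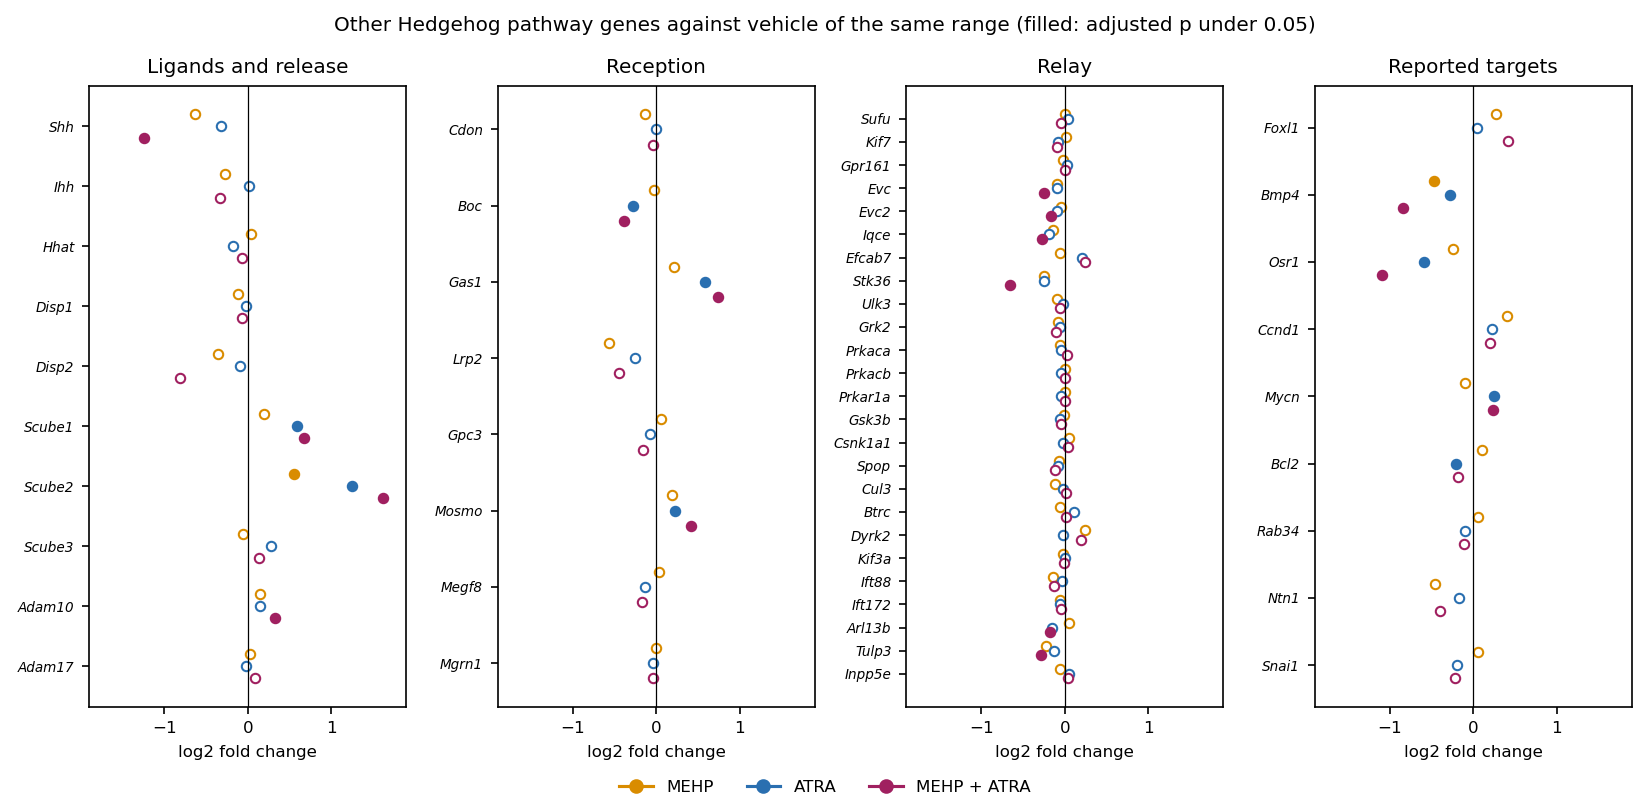
Log2 fold change of other Hedgehog pathway genes against vehicle of the same range, grouped by role, with 1 point per treatment. Filled points have an edgeR adjusted p under 0.05. Scube2, Scube1 and Gas1 lie furthest right and Shh, Osr1 and Bmp4 furthest left among filled points, and Stk36, at -0.65 with MEHP + ATRA, lies furthest from 0 among the 25 relay genes.

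Among 10 genes of ligands and their release, 1 was higher with MEHP, 2 were higher with ATRA, and 3 were higher and 1 lower with MEHP + ATRA. That is 10%, 20% and 40%, beside 4.72%, 18.1% and 29% of all genes. Scube2, whose secreted product helps release the lipid-bound ligand from cells, ran from 1.49 to 2.47 CPM in lower-range vehicle. It ran from 3.93 to 6.61 CPM with ATRA and from 5.498 to 6.89 CPM with MEHP + ATRA. It overlapped vehicle in neither group, as for 9.49% and 17.6% of all genes. Its log2 fold change was 0.55 ± 0.13 with MEHP (edgeR adjusted p = 0.00767), 1.24 ± 0.12 with ATRA (1.92e-09) and 1.62 ± 0.12 with MEHP + ATRA (6.69e-12). Scube1, a related gene, rose by 0.59 with ATRA and 0.67 with MEHP + ATRA on the log2 scale. Adam10, a membrane protease gene, rose by 0.33 with MEHP + ATRA. Shh, a related ligand gene, was scarce at 0.901 to 2.27 CPM in lower-range vehicle and 0.559 to 0.856 CPM with MEHP + ATRA, where it fell by 1.24 on the log2 scale. Shh also differed between the vehicle ranges, as 1 of the 53 genes (log2 difference upper minus lower -1.06 ± 0.25, edgeR adjusted p = 0.0496), a call lost in 27 of the 30 fits that left out 1 library.

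Among 9 reception genes, 3 were higher and 1 lower with ATRA, 2 higher and 1 lower with MEHP + ATRA, and none passed with MEHP (2 at an unadjusted p under 0.05 in edgeR, 0 by DESeq2). The shares called were 44.4% with ATRA and 33.3% with MEHP + ATRA, beside 18.1% and 29% of all genes, and 4.72% of all genes passed with MEHP. The co-receptor genes Gas1 and Boc went opposite ways. Gas1 ran from 93.1 to 146.2 CPM in lower-range vehicle, 158.2 to 189.1 with ATRA and 177.5 to 208.6 with MEHP + ATRA. Its log2 fold change was 0.59 ± 0.12 with ATRA (edgeR adjusted p = 0.000755) and 0.74 ± 0.13 with MEHP + ATRA (4.87e-05). Boc fell by 0.28 with ATRA and by 0.39 with MEHP + ATRA on the log2 scale. Mosmo, whose product lowers SMO at the cell surface, rose by 0.23 and 0.41.

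Of 25 relay genes, which act between SMO and the GLI factors or build the primary cilium, none passed with MEHP (3 at an unadjusted p under 0.05 in edgeR, 1 by DESeq2) or with ATRA (2 and 0). With MEHP + ATRA 24% of the 25 passed, beside 29% of all genes (14.7% lower). The 6 that passed were lower and none was higher. These were Stk36, a kinase gene, with a log2 fold change of -0.65, Tulp3 (-0.28) and Arl13b (-0.18), 2 genes of ciliary transport, and Iqce (-0.27), Evc (-0.25) and Evc2 (-0.16), whose products hold the SMO relay at the cilium base. None of the genes for SUFU, KIF7 or protein kinase A subunits was among them.

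Of 9 tested genes reported elsewhere to respond to Hedgehog in embryonic tissues, 1 was lower with MEHP, 1 higher and 3 lower with ATRA, and 1 higher and 2 lower with MEHP + ATRA. That is 11.1%, 44.4% and 33.3%, beside 4.72%, 18.1% and 29% of all genes. Bmp4, a secreted growth factor gene, ran from 14.2 to 18.8 CPM in lower-range vehicle and from 7.55 to 9.73 CPM with MEHP + ATRA. Its log2 fold change was -0.48 ± 0.09 with MEHP (edgeR adjusted p = 0.000440), -0.28 ± 0.08 with ATRA (0.0159) and -0.84 ± 0.09 with MEHP + ATRA (1.42e-08). Between MEHP + ATRA and ATRA it was -0.57 ± 0.10 (edgeR adjusted p = 0.000780). Osr1, a transcription factor gene of intermediate mesoderm, fell by 0.58 with ATRA and 1.09 with MEHP + ATRA. Bcl2, a survival gene, fell by 0.21 with ATRA, and Mycn, a growth regulator gene, rose by 0.24 with either.

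Markers of the cells that receive DHH moved with the treatments too. Of 8 interstitial progenitor markers, 1 was called higher and 4 lower with ATRA and again with MEHP + ATRA. That is 62.5% with each, beside 18.1% and 29% of all genes. Pdgfra, a growth factor receptor gene, fell by 0.49 and 0.60 on the log2 scale, Lhx9 by 0.66 and 0.98 and Col3a1 by 0.54 and 0.76. Dcn, a matrix gene, rose by 1.04 in both. The summed level of the 8 was 5056 to 5530 CPM in lower-range vehicle, 3745 to 4363 with ATRA and 3592 to 4076 with MEHP + ATRA. Neither treated group overlapped vehicle, as for 9.49% and 17.6% of single genes. Most of the sum was Col3a1 (means 2996, 2062 and 1775 CPM in that order) and Pdgfra (1214, 862.2 and 799.2). Nr2f2 (207.2, 198.9 and 199.3), Tcf21 (273.3, 294.0 and 268.9) and Maf (102.0, 94.18 and 86.76) moved less. Of 5 peritubular markers 2 were called lower with ATRA and 3 with MEHP + ATRA, and none was called higher. That is 40% and 60%, beside 18.1% and 29% of all genes. The sums of these markers were 723.7 to 911.1, 610.7 to 690.9 and 579.7 to 661.6 CPM. Their largest part was Tpm1 (means 511.4, 352.6 and 339.5 CPM in that order). Acta2 went the other way, with means of 201.0, 226.8 and 222.2 CPM. With MEHP alone 1 marker of each list was called lower, Col3a1 (-0.25 ± 0.06 on the log2 scale) and Myh11, a smooth muscle myosin gene (-0.30 ± 0.08). That is 12.5% and 20% of these lists, beside 4.72% of all genes. Between MEHP + ATRA and ATRA 1 marker of each list was called lower as well (12.5% and 20%, beside 3% of all genes). For the peritubular list this was Myh11 (-0.44 ± 0.09). The part of these markers in the values of Gli1, Hhip and Foxf1 was not tested.

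Fetal Leydig cells depend on DHH to form. Of their 7 markers, 1 was called with ATRA and 1 with MEHP + ATRA, in both cases Star, which brings cholesterol into the steroid pathway (log2 fold change 0.38 ± 0.13 and 0.81 ± 0.14, edgeR adjusted p = 0.0428 and 2.65e-05). With ATRA and with MEHP + ATRA the share called was 14.3%, beside 18.1% and 29% of all genes. With MEHP none of the 7 passed (0 at an unadjusted p under 0.05 in edgeR, 0 by DESeq2), against 4.72% of all genes. Their summed level was 2011 to 2456 CPM in lower-range vehicle, 1995 to 2369 with ATRA and 1868 to 2815 with MEHP + ATRA. In the upper range it was 1955 to 3073 CPM in vehicle and 1912 to 2735 with MEHP.

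Markers of other cells in the testis were counted as well. Of 7 endothelial markers 4 were called higher with MEHP, 1 higher with ATRA, and 1 higher and 1 lower with MEHP + ATRA, and their summed level was 157.8 to 258.1 CPM in upper-range vehicle and 167.4 to 301.0 with MEHP. Of 6 Schwann and neural markers 1 was called higher with MEHP, 3 were called higher and 1 lower with ATRA and 2 higher and 1 lower with MEHP + ATRA, with sums of 39.7 to 64.7 CPM in lower-range vehicle, 69.5 to 90.9 with ATRA and 70.3 to 101.7 with MEHP + ATRA. Of 6 markers of the mesonephros and its ducts 2 were called higher with ATRA, and 2 higher and 1 lower with MEHP + ATRA, with sums of 38.1 to 58.8, 39.7 to 56.6 and 44.3 to 49.95 CPM. Of 5 germ cell markers 1 was called lower with MEHP + ATRA. Of the endothelial markers 57.1%, 14.3% and 28.6% were called with MEHP, ATRA and MEHP + ATRA, beside 4.72%, 18.1% and 29% of all genes. In that order the shares were 16.7%, 66.7% and 50% for Schwann and neural markers. They were 0%, 33.3% and 50% for the mesonephros and its ducts and 0%, 0% and 20% for germ cells. Some of these shares were near or below the background. The part of all these markers in the values of the 8 genes was not tested.

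Across libraries of the same group, several of the 8 genes varied together. With the 5 group means of log2 CPM removed, 12 of 28 pairs over the 30 libraries passed by Pearson's r and 11 by Spearman's rho (permutation within groups, two-sided, adjusted over the 28 pairs), all positive. The closest were Ptch1 and Gli2 (r = 0.835, rho = 0.822, permutation p = 1e-05 for both, the smallest possible, adjusted p = 0.00014 and 0.00028). Smo and Gli1 followed (r = 0.773, rho = 0.751, permutation p = 1e-05 and 2e-05, adjusted p = 0.00014 and 0.00028). Without the 2 libraries farthest from the median of the first gene, r was 0.779 and 0.675. With the first title number within range also removed, as a possible batch, r was 0.760 and 0.854, and both pairs passed. High values of r were not confined to the 8 genes. With only the group means removed, 6.26% of 13107 genes had an r with Gli2 of at least 0.7 in size. The share was 3.2% for Ptch1, 0.87% for Smo and 0.79% for Gli1. The median size of r was 0.294 for Gli2, 0.284 for Ptch1, 0.236 for Smo and 0.231 for Gli1. How many pairs pass in other sets of 8 genes was not tested.

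By Pearson's r Dhh passed with 4 genes, Ptch1, Hhip, Gli2 and Smo. Its r was 0.707 with Ptch1 (rho = 0.675, permutation p = 2e-05 and 0.00028, adjusted p = 0.000187 and 0.00245) and 0.730 without the 2 farthest libraries. With Hhip it was 0.600 (rho = 0.588, permutation p = 0.00081 and 0.00225, adjusted p = 0.00378 and 0.0105), and 0.623 without them. With Gli2 it was 0.552 (rho = 0.502, permutation p = 0.00414 and 0.0107, adjusted p = 0.0129 and 0.0301) and with Smo 0.439 (rho = 0.412, permutation p = 0.0141 and 0.0295, adjusted p = 0.0329 and 0.0587). Among 13107 genes, 4.83% had an r with Dhh of at least 0.7 in size. When that title number was removed as well, Dhh passed with none of the other 7 genes. Its r was then 0.419 with Ptch1 (permutation adjusted p = 0.102), 0.310 with Hhip (0.229), 0.270 with Gli2 (0.370) and 0.273 with Smo (0.325). Dhh and Gli1 had an r of 0.225 (rho = 0.230, permutation p = 0.264 and 0.257, adjusted p = 0.389 and 0.36), which was 0.492 without the 2 farthest libraries. Foxf1 passed with none of the other 7, and its lowest r was -0.433, with Gli1 (rho = -0.431, permutation p = 0.0433 and 0.0279, adjusted p = 0.0713 and 0.0587). With the title number removed that r was -0.529 and passed by Pearson (permutation adjusted p = 0.0425) and not by Spearman (0.0822).

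**Figure D4:**
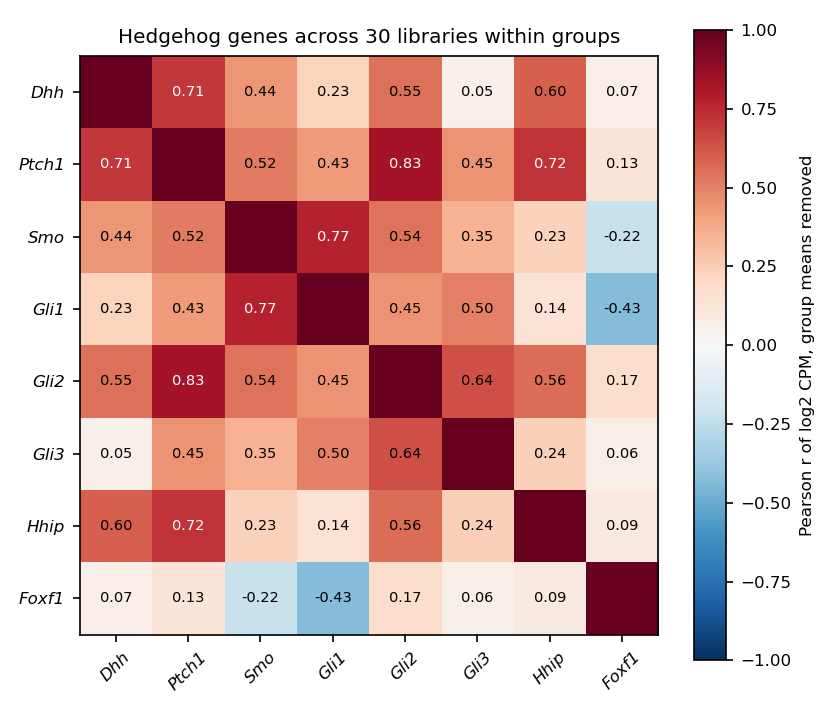
Pearson's r of log2 CPM between each pair of genes over 30 libraries after the group means were removed, from -1 (blue) to 1 (red). Ptch1 and Gli2 have the highest value at 0.83, and the row of Foxf1 lies between -0.43 and 0.17.

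The libraries also shared one broad axis, which holds 37.3% of the within-group variance of 13107 genes. Hhip followed it most, with an r of 0.696, then Ptch1 at 0.485 and Dhh at 0.448. Smo, Gli1 and Foxf1 had values of 0.037, 0.022 and -0.019. The axis had an r of 0.304 with the log2 total count. Its part in the shared variation of Dhh, Ptch1 and Hhip was not tested.

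Genes with no symbol or with a clone or predicted-gene name were left out, which left 13107 with a mean log2 CPM of 1 or more. Among the 13107, the genes whose log2 CPM was most like each over the 30 libraries were named as a description. For Dhh these were Sh3tc2 (r = 0.956), Mamld1 (0.947) and Chchd10 (0.938), and with group means removed Chchd10 (0.931), Mlec (0.930) and Brpf3 (0.920). For Gli1 they included Nfatc4 (0.885) and Mst1r (0.871), and with group means removed Nlgn2 (0.848), Tns2 (0.844) and Cbx6 (0.824). For Foxf1 they were Kremen2 (0.943), Maco1 (0.926) and Myof (0.901), and with group means removed Fbxo41 (0.851), Kremen2 (0.821) and Maco1 (0.813). Ptch1 was most like Fyn (0.858), Dtx4 (0.843) and Cadm4 (0.840), or with group means removed Efnb1 (0.859), Tril (0.849) and Sox13 (0.848). Hhip was most like Stox2 (0.895), Svil (0.892) and Abcb10 (0.886), or with group means removed Thbd (0.858), Nprl3 (0.854) and Ivd (0.852).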

How the data were processed

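The deposited values are raw read counts per gene, 1 file per library, which the authors made with featureCounts, as the file headers show. The submitters' processing notes name bcl2fastq 2.20, Trimmomatic 0.36, STAR 2.5.2b, featureCounts of Subread 1.5.2 and DESeq2 (no version). The genome build, annotation and strand setting were not given in the sources used here. Coordinates are those of the files, which match GENCODE M21 on GRCm38 for 6 of the 8 genes, all but Dhh and Gli1. Symbols were matched for 99.3% of 49315 identifiers.

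Counts were fitted with edgeR 4.0.16 in R 4.3.3. filterByExpr with a minimum count of 10 kept 19323 genes, and libraries were scaled by TMM (factors 0.975 to 1.023). One quasi-likelihood model over 30 libraries held the 4 groups and the title-number range (25 residual degrees of freedom, common biological coefficient of variation 12.7%). The F tests were two-sided, with Benjamini-Hochberg adjustment over all genes tested and a threshold of 0.05. CPM uses the scaled library sizes. The procedure was tested on simulated data with the same coefficient of variation for every gene, no range effect and no variation shared between libraries. That test does not cover these features of the real data. Depth ran from 17551454 to 29306917 counts, and the read numbers of scarce genes are given beside their values.

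The alternatives were median-of-ratios size factors, no low-count filter, DESeq2 1.42.0, no range term, only the groups compared, a block on the first title number, and each library left out. The members and lists were chosen with earlier results of these data known. Named genes are the 8 members, up to 5 called genes per pathway list and comparison by smallest p, up to 4 called markers per list and comparison, and the 3 genes with the highest r. Arl13b completes a count of 6. Genes that overlap a member are named for that, and Foxc2, Fendrr and Foxl1 were chosen after their values were seen. Some genes of these lists are counted but not reported by name here.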

Additional observations from a re-analysis of the deposited data

Results flagged for a closer look

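Over 40 sets of libraries (8 genes in 5 groups), 3 held a library that stood apart from the rest of its group by Dixon's test at the 95% level, and chance gives about 1 in 20. Dhh in vehicle replicate 11, of the upper range, was 220.2 CPM, while the other 5 libraries ran from 141.0 to 169.0. Without it the comparison of MEHP with vehicle passed for Dhh (edgeR adjusted p = 0.00689 against 0.0767). Gli2 in ATRA replicate 1 was 72.8 CPM, while the other 4 ran from 84.4 to 88.6. Hhip in ATRA replicate 1 was 9.80 CPM, while the other 4 ran from 14.2 to 15.8.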

How the results depend on the processing

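The 5 genes called with MEHP + ATRA (Dhh, Gli1, Gli3, Hhip, Foxf1) passed under every alternative run and without any 1 library. Of 312 values for the 8 genes under other settings, 287 kept their direction and side of the threshold, 13 newly passed, 2 no longer passed (Dhh with ATRA without the range term, Gli1 with ATRA without the filter) and 10 changed sign, none of them called. Leaving out 1 library at a time gave 1440 values, of which 1412 were kept. The number of the 8 genes called with MEHP was 0, but 3 without the range term (Dhh, Ptch1, Hhip), and 0 to 1 with 1 library left out. For MEHP + ATRA against ATRA it was 0, but 2 by DESeq2, 2 with only the libraries compared, and 0 to 2 with 1 library left out.

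Libraries that share a first title number did not all vary together (r -0.139 to 0.613 in the lower range, 9 of 19 pairs over 0.1, and -0.15 to 0.766 in the upper, 8 of 10 pairs), so the number was not taken as a pairing. For 22 of 30 libraries the closest library had the same number. With a replicate block on it, over the series or within range, 1 of the 8 genes passed with MEHP (Dhh, adjusted p = 0.0183 and 0.0126), and 1 over the series for MEHP + ATRA against ATRA (Foxf1, 0.0344). Hhip passed with ATRA (0.0130 and 0.0225). Other Hedgehog genes called with MEHP numbered 5 and 6 with these blocks (7 without the range term) against 2, and for MEHP + ATRA against ATRA 5 and 4 (3 with only the libraries compared, 1 to 2 with 1 left out) against 1. Between vehicle ranges 1 became 0 with the block over the series, without the filter and with only the libraries compared, and 0 to 1 with 1 left out. With ATRA 10 became 5 to 12 with 1 left out. With the block within range, 11 of 28 gene pairs correlated, 10 positive and 1 negative (Gli1 and Foxf1), and none of them with Dhh.

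The log2 values that changed sign were all near 0. Ptch1 with ATRA was -0.0331 without the range term and -0.00571 and -0.0143 with the blocks. Ptch1 with MEHP + ATRA was 0.0119 with the block within range, and against ATRA 0.00482 and 0.0262 with the blocks. Gli2 with ATRA was 0.0352 without the range term, and its interaction 0.0139 without the term and 0.0183 and 0.0831 with the blocks. With 1 library left out, the log2 value ran from -0.00102 to 0.0584 for Ptch1 and from -0.0596 to 0.0255 for Gli2 with ATRA, and from -0.0290 to 0.0717 for Gli2 with MEHP + ATRA. Against ATRA it ran from -0.00824 to 0.209 for Dhh, from -0.00144 to 0.0406 for Smo and from -0.00923 to 0.0886 for Gli2, and between ranges from -0.00653 to 0.0664 for Gli3.

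Over all genes, the count called with MEHP was 912, but 2229 without the range term and 439 with only the libraries compared. For MEHP + ATRA against ATRA it was 579, but 1371 with the block over the series and 340 to 689 with 1 library left out. For the interaction it was 6, but 12 by DESeq2, 10 without the range term, 3 and 2 with the blocks and 3 to 8 with 1 left out. Between ranges it was 72, but 19 without the filter, 330 by DESeq2, 0 with only the libraries compared, 42 with the block over the series and 10 to 169 with 1 left out. The cause of these shifts was not tested.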
